A study of Capra hircus with 11 samples.

Results

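IGF1, its receptor IGF1R and the IGF binding proteins were described across 5 goat cell populations. The members were the gene rows with the symbols IGF1, IGF1R, IGFBP2, IGFBP3, IGFBP4, IGFBP5, IGFBP6 and IGFBP7, which are 8 of 16678 gene rows in the 5 tables. They were chosen by name, with earlier results of these data known. In the tables they carry the identifiers gene5531 (IGF1), gene20584 (IGF1R), gene1556 (IGFBP2), gene4326 (IGFBP3), gene19541 (IGFBP4), gene1555 (IGFBP5), gene4953 (IGFBP6) and gene6715 (IGFBP7). The 3 BFRTV tables list all 8 members, the CiMECs table lists 7 (not IGFBP4) and the GMECs table lists 5 (not IGF1, IGFBP2 or IGFBP4).

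IGF1 is a secreted growth factor that binds the tyrosine kinase receptor IGF1R and drives growth and survival through the PI3K and MAPK cascades. The IGF binding proteins hold IGFs in the fluid around cells, where they can block or prolong their action. In the mammary gland, IGF1 made in the stroma is known to act on the epithelium during duct growth, and IGFBP5 is known for its high level during involution. IGFBP7 binds IGFs only weakly and is counted among the related proteins.

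The cells were Capra hircus cells grown on Matrigel-coated plates and read by droplet single-cell RNA sequencing of 3′ ends. BFRTV0d is goat ear fibroblasts at day 0 (3 samples, 10670 barcodes). BFRTV4d (3 samples, 10203 barcodes) and BFRTV8d (2 samples, 10152 barcodes) are such fibroblasts after 4 and 8 days in the induction medium BFRTV, whose agents the labels do not give. CiMECs (1 sample, 5188 barcodes) are day-8 cells that were passaged in goat mammary epithelial cell medium, and GMECs (2 samples, 5641 barcodes) are mammary epithelial cells of natural origin. The samples of a group were deposited as 1 table, and no barcode names its sample. Titles within a group differ only in sheet number and lane, so the samples may be lanes of 1 library, and the series' design text gives 3 samples for BFRTV8d where the labels give 2. Each group therefore has 1 value, no difference below could be tested, and the intervals in parentheses are 95% intervals of counting error only. Levels are CPM, UMIs (unique molecular identifiers, 1 for each captured transcript) per 1000000 UMIs of genes other than ribosomal protein genes. A table that does not list a gene may still hold a few UMIs of it. The BFRTV tables list genes found in at least 11 cells and the other 2 tables list genes found in at least 6 cells, so an unlisted gene was set at 11 or 6 UMIs, which is 0.0936 to 0.106 CPM in the BFRTV tables and 0.083 CPM in CiMECs and GMECs. Ribosomal protein genes are present only in the mammary cell tables. Where CiMECs are set beside BFRTV8d, or GMECs beside BFRTV0d, the kind of table and the group cannot be told apart.

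The fibroblast label of BFRTV0d was matched by its mesenchymal markers (collagens, LUM, DCN, PDGFRA and others), with 15 of 15 listed and 13006 CPM in sum, against 1153 CPM for 12 epithelial markers. The mesenchymal sum was 3563 CPM in BFRTV4d, 432 CPM in BFRTV8d, 18.4 CPM in CiMECs and 4.61 CPM in GMECs. The epithelial sum was 5913, 13194, 7926 and 13330 CPM in the same order. TP63, a factor of basal epithelial cells, is not listed in GMECs, and the milk protein genes CSN2 and LALBA are listed in none of the 5 tables. Endothelial markers summed to at most 3.01 CPM and adipocyte markers to at most 16.9 CPM in any table. Contractile markers (MYH11, ACTG2, CNN1, ACTA2, TAGLN, MYLK and others) summed to 1562, 2745, 627, 3117 and 121 CPM in BFRTV0d, BFRTV4d, BFRTV8d, CiMECs and GMECs. In a sum over a whole table, fewer cells of a kind and less RNA per cell cannot be told apart.

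IGF1, the ligand, was all but absent from the fibroblasts, high at day 4 and low again at day 8. Its level was 0.426 CPM in BFRTV0d (50 UMIs), 113.6 CPM in BFRTV4d (111.6 to 115.7), 8.82 CPM in BFRTV8d (8.25 to 9.41) and 0.083 CPM in CiMECs (6 UMIs in 6 cells), and it is not listed in GMECs. At least 1 IGF1 UMI was found in 0.356% of BFRTV0d cells, 32.95% of BFRTV4d cells and 2.96% of BFRTV8d cells. The shares of cells given with these levels, here and for the next members, use all UMIs of a cell and so also depend on its depth. BFRTV4d thus stood above all other tables, and CiMECs lay at the level of an unlisted gene.

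IGF1R, the receptor, was higher during induction than before it and low in both mammary cell tables. It stood at 72.1 CPM in BFRTV0d, 332 CPM in BFRTV4d and 365 CPM in BFRTV8d. It stood at 17.9 CPM in CiMECs and at 0.665 CPM in GMECs, where 48 UMIs fell in 47 of 5641 cells. The share of cells with a UMI followed the same order and was 48.6%, 90.03%, 92.9%, 19.8% and 0.833%. All 5 levels had intervals that did not overlap.

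IGFBP2, a binding protein secreted by many epithelia, was measured at 4.86 CPM in BFRTV0d, 19.3 CPM in BFRTV4d, 7.48 CPM in BFRTV8d and 3.46 CPM in CiMECs. GMECs do not list it. IGFBP3, the main IGF carrier of blood plasma, was at 0.553, 2.47 and 6.89 CPM at days 0, 4 and 8, at 10.4 CPM in CiMECs and at 1.93 CPM in GMECs. Its level was thus higher in each later stage of the induced cells, although at most 12.4% of the cells of a table held a UMI. IGFBP4, a binding protein that mostly restrains IGF action, stood at 0.630, 1.71 and 0.987 CPM in the BFRTV tables. It was found in no more than 1.78% of cells there and is not listed in the other 2 tables.

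IGFBP5, the most conserved of the binding proteins and one that adheres to matrix, was at 671 CPM in BFRTV0d, 592 CPM in BFRTV4d and 127.5 CPM in BFRTV8d. CiMECs held 0.706 CPM (51 UMIs) and GMECs 23.55 CPM. Cells with a UMI made up 91.4%, 69.7%, 42.8%, 0.925% and 17.4%. IGFBP5 was therefore lowest in CiMECs, below GMECs as well as below the cells from which CiMECs were grown.

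IGFBP6, which prefers IGF2 over IGF1, was the member found at a level over 100 CPM in every table. It was measured at 595 CPM in BFRTV0d, 405.6 CPM in BFRTV4d, 198 CPM in BFRTV8d, 755 CPM in CiMECs and 304 CPM in GMECs. At least 68.6% of the cells of each table held a UMI of it. IGFBP7 was at 66.6 CPM in BFRTV0d, 225 CPM in BFRTV4d, 207 CPM in BFRTV8d, 99.2 CPM in CiMECs and 8.87 CPM in GMECs. The counts come from transcript 3′ ends and were not scaled by length, so the members are not ranked against each other.

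**Figure D1:**
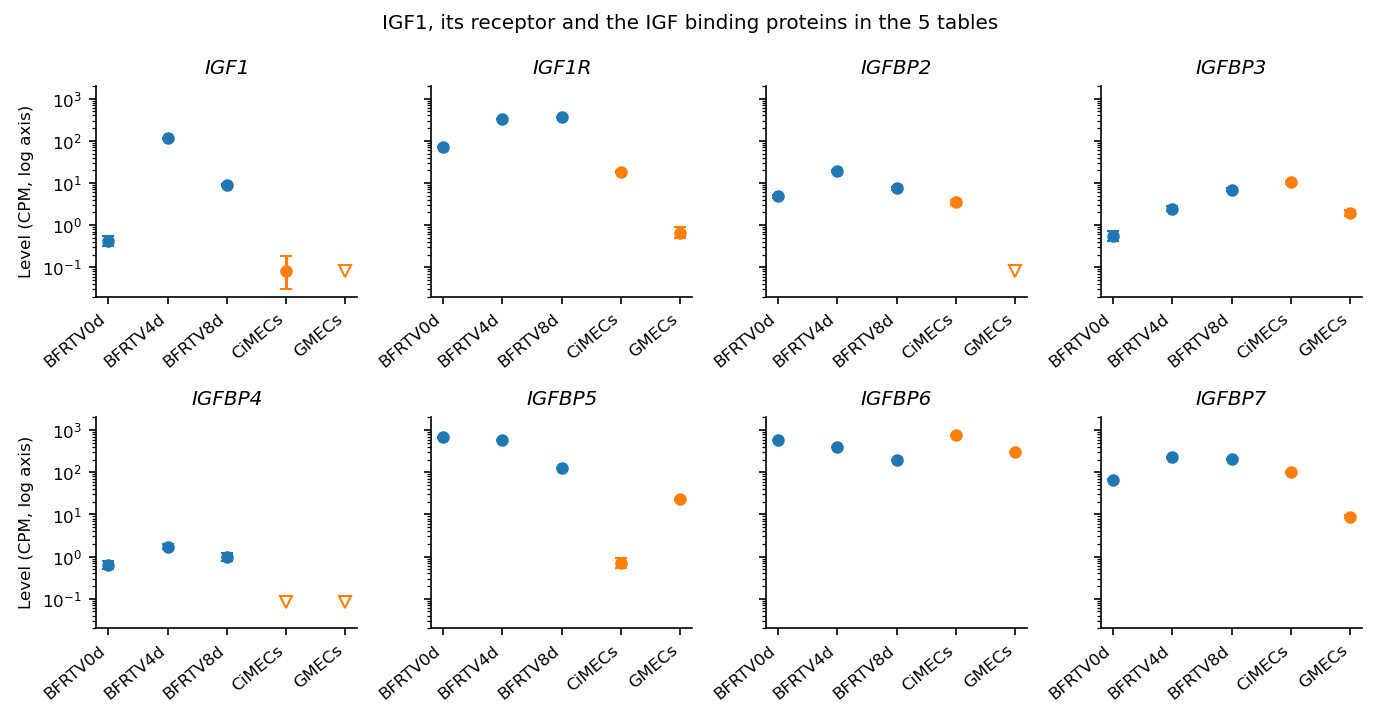
Level of each member in the 5 tables, in CPM (log axis) and with bars for the 95% counting interval (BFRTV tables blue, CiMECs and GMECs orange). Open triangles mark tables that do not list the gene, drawn at the value of the fewest cells that table lists. IGF1 has its high value in BFRTV4d (113.6 CPM), IGF1R lies at 332 to 365 CPM in BFRTV4d and BFRTV8d against 0.665 CPM in GMECs, and IGFBP5 reaches its lowest value in CiMECs.

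BFRTV4d set beside BFRTV0d asks what differed after the early days of induction. Of the 8 members, 6 reached 10 CPM in 1 of the 2 tables and were compared. IGF1 was 267-fold higher in BFRTV4d (202.4 to 360.0), IGF1R 4.61-fold higher (4.50 to 4.72), IGFBP2 3.97-fold higher (3.62 to 4.36) and IGFBP7 3.38-fold higher (3.29 to 3.47). These 4 were at least 2-fold higher and none was lower by as much, where the shares of all 8949 genes compared were 13.4% and 25.4%. With TMM scaling 1391 genes were higher and 1670 lower, with the member counts as before. IGFBP6 was 1.47-fold lower (1.45 to 1.485), or 0.16 below the median of all genes on the log2 scale. IGFBP5 was 1.13-fold lower (1.12 to 1.145) in CPM, and 0.03 and 0.06 higher on the log2 scale with TMM and median-of-ratios scaling. IGFBP3 and IGFBP4 stayed under 10 CPM, with 4.47-fold and 2.72-fold higher CPM in BFRTV4d.

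The next pair, BFRTV8d and BFRTV4d, asks what differed between the middle and the end of induction. IGF1 was 12.9-fold lower (12.05 to 13.8), IGFBP5 4.64-fold lower (4.555 to 4.73), IGFBP2 2.58-fold lower (2.37 to 2.81) and IGFBP6 2.05-fold lower (2.02 to 2.085). These were 4 of the 6 members compared, and no member was at least 2-fold higher. Over 8469 genes the share at least 2-fold lower was 7.10% and the share at least 2-fold higher 10.7%. IGF1R and IGFBP7 differed little, with IGF1R 1.10-fold higher and IGFBP7 1.09-fold lower. IGFBP3 was 2.79-fold higher (2.42 to 3.22) below the 10 CPM minimum.

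Over the whole of induction, BFRTV8d against BFRTV0d, the receptor and IGFBP7 were higher while IGFBP5 and IGFBP6 were lower. IGF1R was 5.06-fold higher (4.95 to 5.185) and IGFBP7 3.10-fold higher (3.02 to 3.185). IGFBP5 was 5.26-fold lower (5.16 to 5.36) and IGFBP6 3.01-fold lower (2.96 to 3.06). The 2 higher and 2 lower members were all 4 compared, against 19.7% of 9317 genes at least 2-fold higher and 28.0% lower. IGF1, under the minimum with 8.82 CPM, was 20.7-fold higher (15.6 to 28.1), and IGFBP3 was 12.5-fold higher (9.65 to 16.3). The BFRTV comparisons share tables, so their values for a member are not independent of each other.

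Passage after day 8 is addressed by CiMECs against BFRTV8d. IGFBP5 was 180.8-fold lower in CiMECs (137 to 243), IGF1R 20.4-fold lower (19.3 to 21.6) and IGFBP7 2.08-fold lower (2.03 to 2.14), while IGFBP6 was 3.82-fold higher (3.76 to 3.88). In this comparison 3 of 5 members were at least 2-fold lower and 1 was at least 2-fold higher, against 43.3% and 9.94% of 8197 genes. With TMM 1907 genes were higher and 1760 lower, and 2 members each way. IGFBP3 was 1.51-fold higher. All genes together had a median of -0.78 on the log2 scale here and of 0.06 and 0.13 with TMM and median-of-ratios scaling. With those scalings IGFBP3 was at least 2-fold higher (1.33 and 1.39 on the log2 scale) and IGFBP7 was no longer at least 2-fold lower (-0.32 and -0.26).

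CiMECs against GMECs asks how the induced cells and the natural mammary cells differ in this family. CiMECs had 27.0-fold higher IGF1R (20.2 to 36.8), 11.2-fold higher IGFBP7 (10.3 to 12.1), 5.40-fold higher IGFBP3 (4.50 to 6.52) and 2.48-fold higher IGFBP6 (2.45 to 2.52). IGFBP5 was 33.4-fold lower in CiMECs (25.3 to 45.0). Thus 4 of 5 members were higher by 2-fold or more and 1 was lower by as much, where the shares of all 7263 genes were 5.53% and 26.0%. That background depends on the scaling, with 402 genes higher and 1891 lower in CPM, 1024 and 697 with TMM and 1086 and 672 with median-of-ratios factors, while the member counts were 4 and 1 with each. IGFBP2, under the minimum, was at least 41.6-fold higher in CiMECs. IGF1 lay at or under the listing limit in both tables, so no ratio is given, and IGFBP4 is listed in neither.

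GMECs against BFRTV0d sets the natural mammary cells beside the fibroblasts. IGF1R was 108.5-fold lower in GMECs (81.7 to 147), IGFBP5 28.5-fold lower (27.1 to 29.9) and IGFBP7 7.51-fold lower (6.93 to 8.15). IGFBP6 was 1.96-fold lower (1.93 to 1.99). Hence 3 of 4 members were at least 2-fold lower and none at least 2-fold higher, against 31.0% and 12.0% of 8772 genes. With TMM 1522 genes were higher and 1683 lower, and the member counts were the same. IGFBP2, under the minimum in both, was at least 58.5-fold lower in GMECs.

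**Figure D2:**
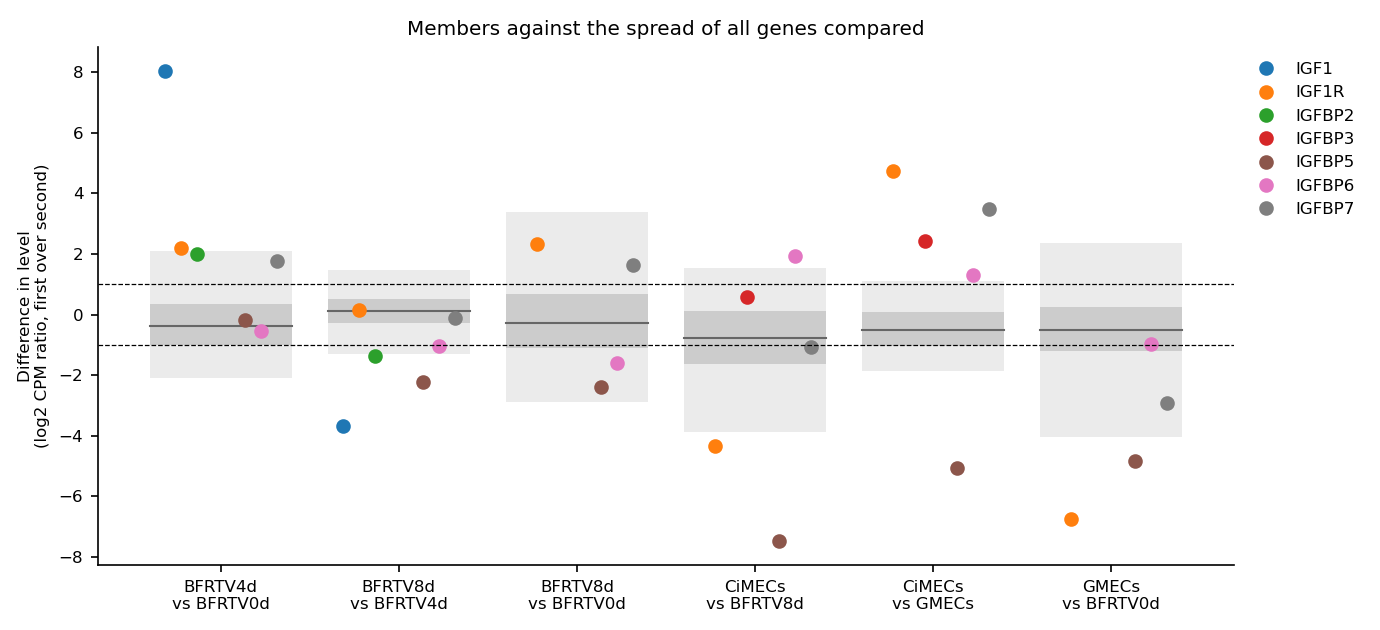
Difference in level of the members that reached 10 CPM, as the log2 ratio of CPM in 6 comparisons (positive, higher in the table named first). Light bands span the 5th to 95th percentile and dark bands the 25th to 75th percentile of all genes compared, the line is their median and the dashed lines mark 2-fold. IGF1 in BFRTV4d against BFRTV0d (8.06) and IGFBP5 in CiMECs against BFRTV8d (-7.50) lie farthest from 0.

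Cells within a table were then grouped by the markers they carried. Each barcode was thinned to 3000 UMIs, and a cell was called epithelial-only or mesenchymal-only when it held at least 2 UMIs of 12 epithelial or 15 mesenchymal markers and fewer than 2 of the other set. Such a class is a range cut from a marker sum and not a cell type. In BFRTV4d 45.8% of cells lay within 1 UMI of a cut, in BFRTV8d 22.0% and in BFRTV0d 18.9%. BFRTV0d held 246 epithelial-only and 9692 mesenchymal-only cells, BFRTV4d 3914 and 3381, and BFRTV8d 9332 and 73. Cells with both sets numbered 732, 2861 and 739. No member belongs to either marker set. The 246 epithelial-only cells of BFRTV0d were deeper than its mesenchymal-only cells, with medians of 16301 and 9890 UMIs, and no doublet caller was run.

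At day 4 IGF1 lay in cells with mesenchymal markers. Its level was 228 CPM in mesenchymal-only cells (223 to 233), 132 CPM in cells with both sets (128 to 136.0) and 3.15 CPM in epithelial-only cells (2.63 to 3.75). The difference between the outer classes was 72.4-fold (60.75 to 87.0). The epithelial-only level was 1.38% of the mesenchymal-only level, the lowest such percentage in BFRTV4d among genes outside the marker sets with at least 50 CPM in mesenchymal-only cells. After thinning, 37.15% of mesenchymal-only and 0.945% of epithelial-only cells held a UMI, with median depths of 9407 and 9562.5 UMIs before thinning. At day 8 the order was the same, with 131 CPM (108 to 157.5) in the 73 mesenchymal-only cells, 80.97 CPM in cells with both sets and 0.664 CPM in epithelial-only cells. In BFRTV0d no class was above 0.449 CPM.

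IGFBP5 had the same side as IGF1 at every day. Mesenchymal-only cells held 754, 1121 and 975 CPM at days 0, 4 and 8, and epithelial-only cells 47.4, 74.6 and 65.4 CPM. The ratio between the classes hardly differed between days, at 15.9-fold (13.96 to 18.2), 15.0-fold (14.5 to 15.6) and 14.9-fold (13.9 to 16.0). The day 8 ratio rests on 73 mesenchymal-only cells. After thinning, 41.1% of these held no IGFBP5 UMI, and the highest count was 40 with a mean of 3.30. The counting intervals do not cover such spread between cells. Cells with both sets lay between them, at 234, 686 and 686 CPM.

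IGFBP2 had the opposite side. Epithelial-only cells held 36.9 CPM in BFRTV0d and 36.7 CPM in BFRTV4d, against 0.239 and 0.772 CPM in mesenchymal-only cells. That is 154-fold higher (100.4 to 247) and 47.6-fold higher (32.3 to 73.1) in epithelial-only cells. At day 8 the levels were 7.79 CPM in epithelial-only cells and 0 UMIs in the 73 mesenchymal-only cells, which allows up to 4.21 CPM. IGFBP3 also had its higher level in epithelial-only cells, 4.52 against 0.653 CPM in BFRTV4d, under the 10 CPM minimum.

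IGFBP2 and IGFBP5 are direct neighbours in the RefSeq annotation of the goat assembly ARS1.2, with 0 genes between them, so the adjacent genes had opposite sides in these classes. In the BFRTV4d table, 25.8% of cells with an IGFBP2 UMI also held an IGFBP5 UMI after thinning, against 47.3% of the other cells. Within its epithelial-only cells the shares were 22.4% and 19.7%.

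IGF1R, IGFBP6 and IGFBP7 were found in both classes at levels less than 2-fold apart. IGF1R stood at 315 CPM in epithelial-only and 334 CPM in mesenchymal-only cells of BFRTV4d. IGFBP6 stood at 489 and 344 CPM there, and IGFBP7 at 152 and 302 CPM. IGFBP7 was lower in epithelial-only cells at all 3 days, by 1.57-fold, 1.98-fold and 1.97-fold. IGF1R was 1.19-fold higher in epithelial-only cells at day 0 (1.07 to 1.31), 1.06-fold lower at day 4 (1.03 to 1.085) and 1.67-fold higher at day 8 (1.45 to 1.93). IGFBP6 was 1.50-fold higher at day 0 (1.45 to 1.545), 1.42-fold higher at day 4 (1.39 to 1.455) and 1.64-fold lower at day 8 (1.455 to 1.85).

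By the same 2-fold measure, 1 member was higher and 2 were lower in epithelial-only cells of BFRTV4d (IGFBP2, and IGF1 and IGFBP5), against 28.5% and 9.23% of 8546 genes. In BFRTV0d 1 was higher and 1 lower (IGFBP2 and IGFBP5), against 11.6% and 18.2% of 8724 genes. In BFRTV8d none was higher and 2 were lower (IGF1 and IGFBP5), against 22.3% and 10.9% of 8700 genes.

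**Figure D3:**
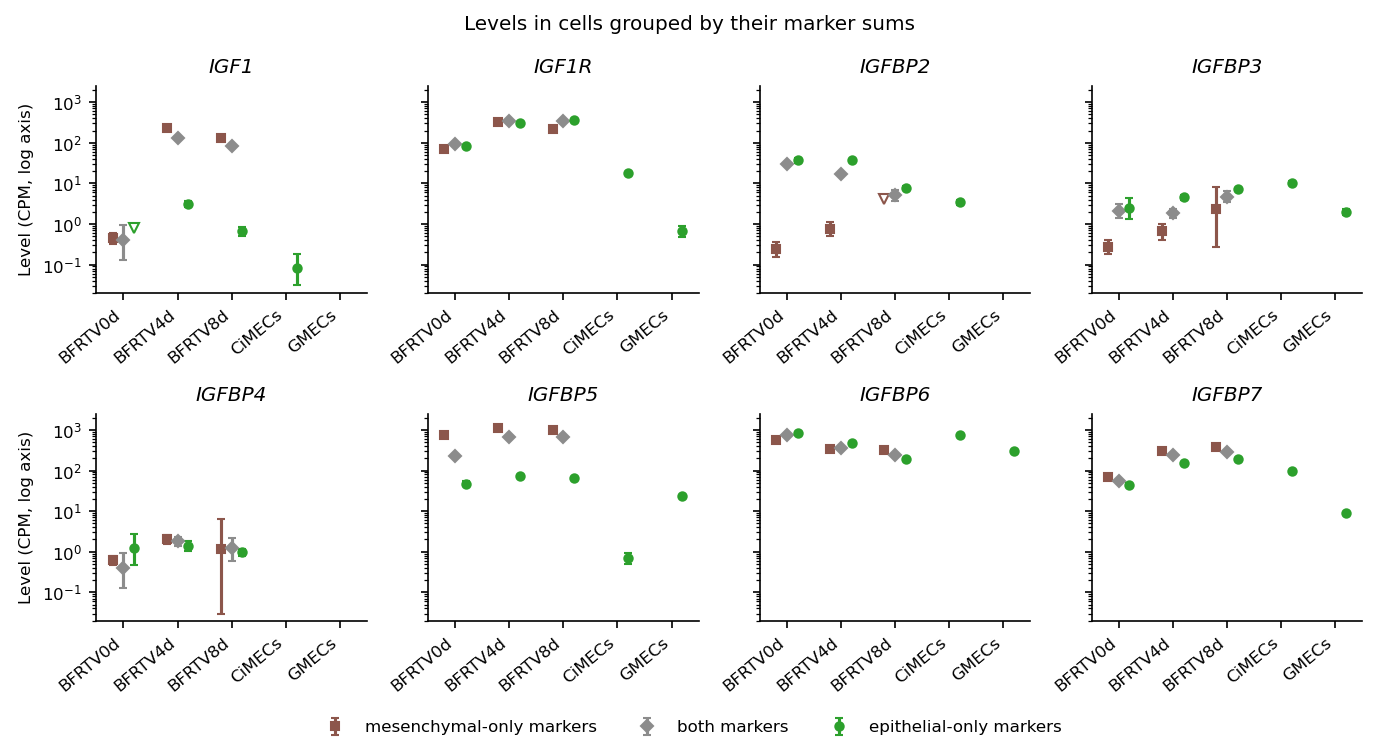
Level of each member (CPM, log axis) in mesenchymal-only cells, cells with both marker sets and epithelial-only cells of each table, with 95% counting intervals as bars. Open triangles mark 0 UMIs and stand at the upper 95% limit, and classes of under 50 cells are left out. IGF1 and IGFBP5 lie higher in mesenchymal-only cells and IGFBP2 in epithelial-only cells, while IGF1R, IGFBP6 and IGFBP7 lie close together.

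Following 1 class across the tables gave other values than the whole tables for some members. IGFBP5 was 5.26-fold lower in the whole BFRTV8d table than in BFRTV0d, but 1.38-fold higher in epithelial-only cells (1.21 to 1.58) and 1.29-fold higher in mesenchymal-only cells (1.21 to 1.38). Over the same days the mesenchymal-only share of cells was 90.8% in BFRTV0d and 0.720% in BFRTV8d. IGFBP2 was 3.97-fold higher in the whole BFRTV4d table than in BFRTV0d and 1.005-fold lower in epithelial-only cells, an interval of 0.855 to 1.18 that includes no difference. The epithelial-only share of cells was 2.31% and 38.5%. Between BFRTV4d and BFRTV8d, IGFBP2 was 4.72-fold lower in epithelial-only cells (4.31 to 5.16), a larger difference than the 2.58-fold of the whole tables.

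For IGF1R and IGFBP7 the differences of the first 4 days were present inside both classes, and for IGF1 inside the mesenchymal-only class. Epithelial-only cells held 127 IGF1 UMIs in BFRTV4d (3.15 CPM) and 0 in BFRTV0d, so no ratio is given there. IGF1 was 509-fold higher in mesenchymal-only cells of BFRTV4d than of BFRTV0d (380 to 698). It was then 1.74-fold lower in the mesenchymal-only cells of BFRTV8d (1.45 to 2.11), where the whole tables differed 12.9-fold. IGF1R was 3.855-fold higher at day 4 in epithelial-only cells and 4.83-fold higher in mesenchymal-only cells. IGFBP7 was 3.45-fold and 4.355-fold higher. Between days 4 and 8 IGFBP7 was 1.30-fold and 1.29-fold higher in the classes, while the whole tables had it 1.09-fold lower.

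IGFBP6 was lower in both classes over induction, and more so in epithelial-only cells. These held 841, 489 and 192 CPM at days 0, 4 and 8, which is 4.38-fold lower at day 8 than at day 0 (4.23 to 4.53). Mesenchymal-only cells held 562, 344 and 316 CPM, 1.78-fold lower (1.58 to 2.01). In epithelial-only cells CiMECs were 3.94-fold higher than BFRTV8d for IGFBP6, 20.7-fold lower for IGF1R and 94.75-fold lower for IGFBP5, so that the IGFBP5 difference was smaller than that of the whole tables.

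Counted within classes, 3 of 5 members were at least 2-fold higher in mesenchymal-only cells of BFRTV4d than of BFRTV0d (IGF1, IGF1R and IGFBP7) and none lower, against 10.5% and 40.3% of genes. In epithelial-only cells 2 of 5 were higher (IGF1R and IGFBP7) and none lower, against 15.1% and 12.6%. From BFRTV4d to BFRTV8d, 2 of 5 were lower in epithelial-only cells (IGFBP2 and IGFBP6) and none higher, against 6.56% and 6.40%. In mesenchymal-only cells none of 5 passed 2-fold in either direction, against 8.57% higher and 3.51% lower. In epithelial-only cells of GMECs all 5 members compared were lower than in those of BFRTV0d, against 19.0% of genes lower and 8.91% higher. IGFBP2 is among these 5 but is not listed in GMECs, so its call rests on no measured level there.

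Single cells of a class held very unequal numbers of UMIs. Among mesenchymal-only cells of BFRTV4d thinned to 3000 UMIs, 29.9% held no IGFBP5 UMI and 23.45% held 5 or more, with a mean of 3.46 and a highest count of 68. For IGF1, 62.85% of these cells held none and 1.45% held 5 or more, with a mean of 0.665. In epithelial-only cells 80.02% held no IGFBP5 UMI and 0.0256% held 5 or more.

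**Figure D4:**
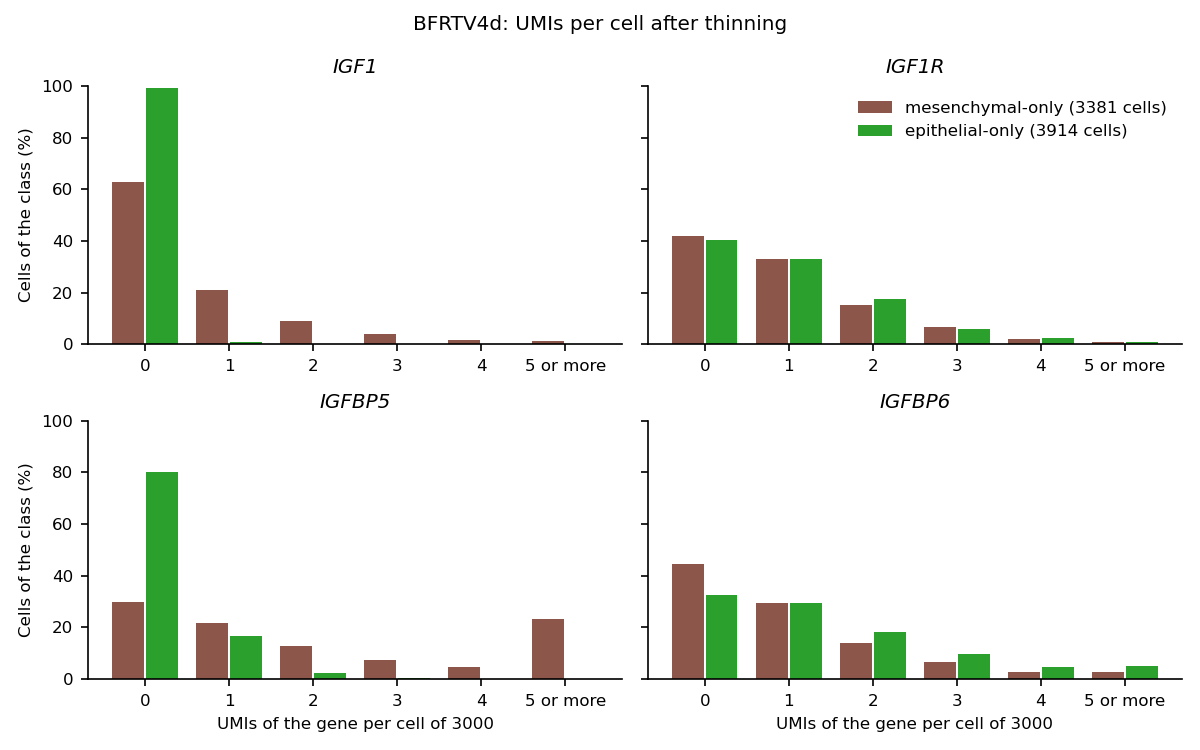
Share of cells (percent) by the number of UMIs of IGF1, IGF1R, IGFBP5 and IGFBP6 per cell in BFRTV4d, after each cell was thinned to 3000 UMIs, for 3381 mesenchymal-only and 3914 epithelial-only cells. IGF1 is at 0 in 99.05% of epithelial-only cells, IGFBP5 has 23.45% of mesenchymal-only cells at 5 or more, and IGFBP6 is at 0 in 44.6% of mesenchymal-only and 32.7% of epithelial-only cells (IGF1R 42.1% and 40.4%).

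IGF1 and IGFBP5 were found together in BFRTV4d cells 1.51 times as often as independence gives over the whole table and 1.02 times as often within the mesenchymal-only class. Over all cells, 69.4% of those with an IGF1 UMI held an IGFBP5 UMI, against 40.5% of the others. Within mesenchymal-only cells the shares were 71.3% and 69.4%, and 895 cells held both where independence gives 880.4. IGF1 and IGFBP2 were found together in 24 cells of the table, where independence gives 109.5.

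IGF1 was higher in cells with contractile markers and lower in cells with cycling markers. In BFRTV4d, cells with at least 2 UMIs of the contractile markers held 137.9 CPM of IGF1 and the others 8.41 CPM, a 16.4-fold difference, against 5.46% of 8447 genes at least 2-fold higher. Within mesenchymal-only cells the difference was 2.63-fold (2 to 3.54), from 230.7 CPM in 3306 contractile-marker cells to 87.6 CPM in 75 others. Of 7820 genes, 3.43% were at least 2-fold higher there. Cells with cycling markers held 33.3 CPM of IGF1 against 138.5 CPM in the others, and 182.6 against 719 CPM of IGFBP5. They held 31.55 against 15.5 CPM of IGFBP2. Of 8450 genes, 8.11% were at least 2-fold higher and 4.24% lower in cells with cycling markers. The epithelial and mesenchymal classes were not held apart in the cycling comparison, and their part in it was not tested.

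In the mammary tables IGFBP6 was lower in cells with cycling markers. GMECs with cycling markers held 187.6 CPM of IGFBP6 against 367.9 CPM in the others, 1.96-fold lower (1.90 to 2.025), and CiMECs 558 against 784 CPM, 1.41-fold lower. At day 8, cells with secretory markers (TFF3, AGR2, LTF and others) held 118 CPM of IGFBP6 against 211 CPM, 1.79-fold lower, and 0.736 against 10.2 CPM of IGF1. The epithelial and mesenchymal classes were not held apart there, and their part in it was not tested. GMECs with secretory markers had the other direction for IGFBP6, with 335.6 against 299.1 CPM, 1.12-fold higher (1.07 to 1.17).

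Other genes whose levels followed those of a member over the 5 tables were sought by the root mean square difference of centred log2(CPM + 1) values, among 8619 candidate genes. With 5 points per gene this is a description only. An unlisted member was set at the listing limit of its table. The range of a member over the tables ran from 1.33 (IGFBP4) to 8.62 (IGFBP5) on this scale, so differences are not comparable between members. MGP, the matrix Gla protein, and MYLK, the myosin light chain kinase, were nearest to IGF1, with differences of 0.872 and 0.955. The carbonic anhydrase CA12 (0.552) and KRT14, a basal keratin (0.627), were nearest to IGF1R, and the matrix protease ADAMTS1 (0.909) and the semaphorin and VEGF receptor NRP2 (0.967) to IGFBP5. SSPN (0.344) was nearest to IGFBP2, DKK3 (0.270) to IGFBP3, GSPT2 (0.0785) to IGFBP4, VKORC1 (0.249) to IGFBP6 and MMP9 (0.422) to IGFBP7. Likeness over tables did not carry over to single cells for IGF1 and MGP. In mesenchymal-only cells of BFRTV4d, MGP stood at 286 CPM in the 1256 cells with an IGF1 UMI and at 648 CPM in the 2125 without, 2.26-fold lower (2.12 to 2.42).

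The other ligands and receptors of the family were listed as well. IGF2, the other ligand, stood at 0.919, 2.80, 4.29 and 1.34 CPM in BFRTV0d, BFRTV4d, BFRTV8d and CiMECs and is not listed in GMECs. INS, the insulin gene, is not listed in these tables. INSR, the insulin receptor, stood at 9.10, 11.5, 17.7, 0.567 and 5.90 CPM, IGF2R, which clears IGF2, at 42.5, 35.1, 34.0, 7.87 and 16.3 CPM, and the endocytic receptor LRP1 at 232.6, 194.2, 87.3, 3.50 and 1.205 CPM over the 5 tables. All 3 were lower in CiMECs than in BFRTV8d together with IGF1R, INSR by 31.2-fold (22.9 to 43.6), LRP1 by 24.9-fold (22.0 to 28.4) and IGF2R by 4.32-fold (3.96 to 4.73). INSR was higher in GMECs than in CiMECs, and IGF1R lower.

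Among proteins related to the binding proteins, ESM1, the secreted proteoglycan endocan, stood at 1701 CPM in BFRTV0d, 75.9 CPM in BFRTV4d, 98.6 CPM in BFRTV8d, 589 CPM in CiMECs and 1310.4 CPM in GMECs. It was 22.4-fold lower in BFRTV4d than in BFRTV0d (21.9 to 22.9). NOV, a matricellular CCN protein, was 55.6-fold higher in CiMECs than in BFRTV8d (44.8 to 69.8), with 45.7 against 0.823 CPM, and stood at 37.7 CPM in GMECs. CYR61, another CCN protein, stood between 248 and 625 CPM in all tables.

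The proteases that cut binding proteins and their inhibitors differed too. ADAM12, which cleaves IGFBP3 and IGFBP5, was at 49.5 CPM in BFRTV0d and at 4.56, 1.48, 0.152 and 0.485 CPM in the other tables in order. STC2, an inhibitor of pappalysins, was at 50.3 CPM in BFRTV8d, 15.5-fold higher than in BFRTV0d (13.97 to 17.3), and at 0.277 CPM in CiMECs. STC1, its paralogue, was at 20.5, 24.3 and 5.23 CPM in the BFRTV tables and is not listed in CiMECs or GMECs. HTRA1, a secreted serine protease, stood at 377 to 481 CPM in the BFRTV tables, 87.9 CPM in CiMECs and 169.7 CPM in GMECs. PAPPA and PAPPA2 are not listed in these tables.

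Upstream and downstream of the receptor, 10 lists of pathway genes chosen by function were counted without the members. They include the other ligands, receptors, binding proteins and binding protein proteases as well as the adaptors and cascades. Of 63 genes compared between BFRTV4d and BFRTV0d, 7 were at least 2-fold higher and 15 lower. The counts were 11 higher and 3 lower of 65 for BFRTV8d against BFRTV4d, and 15 and 14 of 70 for BFRTV8d against BFRTV0d. CiMECs against BFRTV8d had 3 higher and 39 lower of 65, CiMECs against GMECs 0 and 14 of 50, and GMECs against BFRTV0d 8 and 19 of 62. The background shares of all genes are those given with the members above.

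AKT is known to hold the FOXO factors out of the nucleus. The list of FOXO factors and targets held all 7 higher genes of BFRTV4d against BFRTV0d and 8 of the 15 of BFRTV8d against BFRTV0d. In BFRTV4d against BFRTV0d 7 of 13 were at least 2-fold higher and 1 lower, with a list median of 1.15 on the log2 scale against -0.39 for all genes. In BFRTV8d against BFRTV0d 8 of 14 were higher and none lower, with a median of 1.37 against -0.29. In CiMECs against BFRTV8d 13 of 14 were lower and none higher, with a median of -2.66 against -0.78. The list was not high in the induction tables only. GMECs against BFRTV0d had 6 of 12 higher and 1 lower, with a median of 0.84 against -0.50. BFRTV8d against BFRTV4d had 3 of 14 higher and none lower, with a median of 0.64 against 0.12. CiMECs against GMECs had 6 of 10 lower and none higher, with a median of -1.215 against -0.51. SESN3, a stress-response inhibitor of mTORC1, stood at 4.58, 195.6, 383, 8.95 and 22.3 CPM over the 5 tables. TXNIP, which restrains glucose uptake, stood at 8.65, 69.9 and 289.5 CPM in the BFRTV tables. PDK4, a kinase that shuts off pyruvate oxidation, was at least 114-fold higher in BFRTV8d than in BFRTV0d.

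In BFRTV4d against BFRTV0d the adaptors and cascades had fewer higher genes than the FOXO list. Of 8 receptor adaptors compared between BFRTV4d and BFRTV0d none was at least 2-fold higher and 3 were lower, among them SOCS3, a cytokine signalling inhibitor, by 5.90-fold (5.56 to 6.265). Of 14 RAS and MAPK genes none was higher and 6 were lower, among them the feedback inhibitor SPRY4 by 28.8-fold (21.2 to 40.1). Of 15 PI3K, AKT and mTOR genes none was higher and 3 were lower, with MLST8, an mTOR subunit, 6.52-fold lower (6.11 to 6.96). Of all genes compared here, 13.4% were at least 2-fold higher and 25.4% lower. For BFRTV8d against BFRTV4d, 2 of 8 adaptors and 2 of 13 RAS and MAPK genes were at least 2-fold higher. So were 2 of 17 PI3K, AKT and mTOR genes. No gene of these lists was lower, against 10.7% of all genes higher and 7.10% lower. BFRTV8d against BFRTV0d had 0 higher and 2 lower of 9 adaptors. The counts were 2 and 2 of 14 RAS and MAPK genes and 3 and 4 of 18 PI3K, AKT and mTOR genes. In CiMECs against BFRTV8d, 5 of 7 adaptors were at least 2-fold lower, among them SOCS2 by 22.8-fold, IRS1 by 5.09-fold and IRS2 by 4.115-fold, and so were 9 of 18 PI3K, AKT and mTOR genes, where 43.3% of all genes were. PRLR, the prolactin receptor, was at least 134-fold higher in BFRTV8d (12.5 CPM) than in BFRTV0d and is not listed in CiMECs.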

How the data were processed

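Single-cell RNA-seq data labelled as 11 samples in 5 groups were deposited by the authors as 1 table per group of whole-number UMI counts, not normalized. According to the processing notes of the submitters, FastQC 0.10.1 and Cell Ranger were used. The genome build is not given in the sources used here. Total UMIs were 117500853 (BFRTV0d), 106750380 (BFRTV4d), 103337253 (BFRTV8d), 97203521 (CiMECs) and 111001606 (GMECs), with medians of 10070, 9665, 9089, 12535 and 12007 UMIs per barcode without ribosomal protein genes. The depth limits genes under about 1 CPM.

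Counts were summed per table or class in Python 3.11.15 (numpy 2.4.6, scipy 1.17.1, pandas 2.3.3) and scaled to CPM without the 74 ribosomal protein genes, which took 25.6% and 35.0% of UMIs in CiMECs and GMECs. Genes of at least 10 CPM in 1 of 2 tables were compared and counted at 2-fold, with exact conditional binomial 95% intervals of the CPM ratio. Intervals cover counting error only. Thinning to 3000 UMIs left out 0, 45, 8, 938 and 961 barcodes. Between 37 and 147 barcodes were shared by any 2 tables. The alternatives were TMM (edgeR 4.0.16) and median-of-ratios factors (DESeq2 1.42.0), both run in R 4.3.3, kept ribosomal genes, no minimum, thinned barcodes, barcodes without the 5% deepest, and other class cuts. The fold function and the 2-fold call were tested on simulated data, and thinning was checked on the BFRTV4d counts. The marker classes and the steps within them were not tested on simulated data. The 8 members, the pathway and marker lists and the rule for named genes (all members, list genes at their largest folds, the genes nearest in level over tables) were chosen with earlier results of these data known. Of the 8 members, 8 matched the RefSeq table of ARS1.2, used for names and neighbours only. MGP in cells with and without IGF1 was chosen after its values were seen. Of the pathway list genes, 1 is not reported here by name.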

Additional observations from a re-analysis of the deposited data

Results flagged for a closer look

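IGF1R and IGFBP6 differed between epithelial-only and mesenchymal-only cells in opposite directions at different days of induction. IGF1R was 1.19-fold higher in epithelial-only cells of BFRTV0d and 1.67-fold higher in those of BFRTV8d, but 1.06-fold lower in those of BFRTV4d. IGFBP6 was 1.50-fold higher in epithelial-only cells of BFRTV0d and 1.42-fold higher in those of BFRTV4d, but 1.64-fold lower in those of BFRTV8d. The counting intervals of these ratios exclude 1, but with 1 table per day the difference between days was not tested. The BFRTV0d ratios rest on 246 epithelial-only cells and the BFRTV8d ratios on 73 mesenchymal-only cells.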

How the results depend on the processing

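No paired analysis was possible because each group is 1 table whose barcodes carry no sample. For the same reason no replicate could be left out. Of 79 planned counts of members or genes under another scaling, minimum, thinning or choice of barcodes, 70 stayed within 1.5 times of the reported count. In these planned settings no member at least 2-fold apart turned its direction. Of 216 values of single members, 104 moved by more than their counting interval. Some of these settings could not change a value. Keeping ribosomal protein genes repeats the comparisons among BFRTV tables, which hold none, and a minimum level does not enter the ratio of a single member. The counts of values that stayed the same include such cases. In GMECs against BFRTV0d, 4 members in place of 3 were at least 2-fold lower with ribosomal protein genes kept or with thinned barcodes, IGFBP6 being the member added. Without a minimum level the genes at least 2-fold apart numbered 6638, 3618, 7952, 8692, 5234 and 7480 in the 6 comparisons in the order of the report, and the members 7 in both CiMECs against BFRTV8d and GMECs against BFRTV0d. With ribosomal protein genes kept, 1514 genes in place of 2293 were at least 2-fold apart between CiMECs and GMECs, 32.1% of them higher in place of 17.5%. In the same setting 8.45% of called genes were higher in CiMECs against BFRTV8d and 10.1% in GMECs against BFRTV0d, in place of 18.7% and 27.9%. TMM and median-of-ratios factors moved the median of all genes by over 0.1 on the log2 scale in 5 of 6 comparisons. The called genes that were higher then made up 45.4% and 47.3% for BFRTV4d against BFRTV0d (34.45% in CPM), 52.0% and 55.3% for CiMECs against BFRTV8d, 59.5% and 61.8% for CiMECs against GMECs, and 47.5% and 51.3% for GMECs against BFRTV0d. The counts below used single classes of cells and were chosen after seeing the data. Of 18 such counts 6 moved, and of 42 values of single members 30 moved and 3 turned direction. In epithelial-only cells 2 members were at least 2-fold apart for BFRTV4d against BFRTV0d and 2 for BFRTV8d against BFRTV4d. For GMECs against BFRTV0d 5 members, with IGFBP2 unlisted in GMECs, and 2271 genes were. In mesenchymal-only cells the count for BFRTV8d against BFRTV4d was 0 members and 930 genes. On the log2 scale IGFBP2 was at -0.007 in epithelial-only cells for BFRTV4d against BFRTV0d, where the whole tables gave 1.99. IGFBP5 for BFRTV8d against BFRTV0d was at 0.464 in epithelial-only and 0.371 in mesenchymal-only cells. The whole tables gave -2.395 for IGFBP5, so its direction turned within the classes. The cause was not tested. Without thinning, BFRTV0d kept 3 epithelial-only cells and BFRTV8d 0 mesenchymal-only cells, so those class ratios gave no value.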

Other observations

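Genes that differed between cells with and without a UMI of a member, within 1 class, were ranked by their CPM ratio, and those named here were chosen after their values were seen. In CiMECs the 49 epithelial-only cells with an IGFBP2 UMI held 449 CPM of COL17A1, the hemidesmosome collagen, against 56.2 CPM in the 4192 others, 7.99-fold higher (6.11 to 10.3). They also held 54.4 against 7.55 CPM of SNAI2, a zinc finger factor of basal cells, 7.20-fold higher with a wide interval (3.02 to 14.8). S100A8 stood at 326.5 CPM in them against 1279 CPM, 3.92-fold lower (2.95 to 5.315). The 1040 CiMECs with an IGFBP7 UMI held 1.81-fold more COL17A1 (1.56 to 2.10) and 1.54-fold more KRT14 (1.44 to 1.65). In GMECs the 2178 cells with an IGFBP6 UMI held 2.55-fold more DKK1, a Wnt antagonist (2.27 to 2.86), and 2.04-fold less TOP2A, the topoisomerase of dividing cells (1.77 to 2.36).

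In mesenchymal-only cells of BFRTV4d with an IGF1 UMI, CCL20, a chemokine, was 2.23-fold lower (1.82 to 2.75) and NOS2, the inducible nitric oxide synthase, 1.50-fold higher (1.26 to 1.77). After thinning, the median number of members with a UMI per cell was 2 in each BFRTV table and 1 in CiMECs and GMECs. No UMI of any member was found in 4.05%, 3.92%, 10.5%, 16.8% and 48.55% of the thinned cells of BFRTV0d, BFRTV4d, BFRTV8d, CiMECs and GMECs.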
